A study of Mus musculus with 11 samples.

Results

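Cytosolic ribosomal proteins are the protein parts of the ribosome, the particle that reads mRNA and builds protein. Their genes were followed here in regulatory T cells (Tregs) of mouse visceral adipose tissue (VAT) and spleen, with and without deletion of Srebf2, which encodes SREBP2, an activator of the genes for making and taking up cholesterol. Members were chosen by name alone, as symbols of the Rpl and Rps series together with Rpsa, Rplp0, Rplp1 and Rplp2, leaving out Rps6 kinases and names of pseudogenes. The rule found 82 of the 10992 genes measured. They comprise 31 genes of the small subunit, 43 of the large subunit, 3 of the stalk and 5 paralogs, which are near relatives of a standard ribosomal protein.

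Male mice aged 25 weeks gave the cells, which were sorted live by CD3, CD4 and Foxp3, and bulk RNA was sequenced in the 10 libraries used here. Knockout (KO) cells carried Foxp3-YFPcre with Srebf2-flox/flox, so that the Cre recombinase deletes Srebf2 in cells that express Foxp3. Wild-type (WT) cells carried Foxp3-YFPcre with Srebf2-WT/WT, so the Cre was present in every group and the controls differ from KO cells in the floxed alleles. There were 3 VAT KO, 3 VAT WT, 2 spleen KO and 2 spleen WT libraries, named by the replicate numbers of the labels. The labels do not tie the libraries to mice, and p-values therefore measure only how these libraries spread, which may be technical.

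Each ribosome holds 1 copy of nearly every ribosomal protein, and cells make these proteins in matched amounts. Many of the mRNAs begin with a run of pyrimidines (C or T in the DNA) at the very start of the transcript, through which mTOR signalling and the RNA-binding protein Larp1 set how fast they are translated. In T cells, ribosome production is known to increase when a resting cell is activated and starts to grow. A few genes have relatives with a separate pattern of use, such as Rpl22l1 for Rpl22, which binds RNA and is needed for normal T cell development in mice.

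The sequence at the start of the genes is shown because the pyrimidine run is the feature that ribosomal protein genes are best known to share. The RefSeq promoter table of GRCm38.p6 held 61 of the 82 genes. A run of at least 8 C or T on the gene's strand, in the window from 30 bases before the start to 20 bases after it, was found in 32 of the 61 genes (52.5%) and in 22.9% of the 27025 genes of the table. Each line below gives 50 bases of the gene's strand, 5′ to 3′, in which the RefSeq start is base 31 and capitals mark the longest such run. The first 5 genes were lower in VAT than in spleen Tregs in both genotypes, Rpl28 had the largest fall in WT, Rps6 is the protein phosphorylated by S6 kinase, and Rpl13a and Rpl22l1 had the highest KO-minus-WT differences in VAT.
Rpl4 (chr9:64173357-64173406, plus strand): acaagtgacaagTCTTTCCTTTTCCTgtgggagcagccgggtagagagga
Rps18 (chr17:33955646-33955695, minus strand): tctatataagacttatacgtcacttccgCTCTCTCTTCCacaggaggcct
Rps7 (chr12:28635934-28635983, minus strand): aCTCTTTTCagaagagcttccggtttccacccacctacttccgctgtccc
Rpl26 (chr11:68901536-68901585, plus strand): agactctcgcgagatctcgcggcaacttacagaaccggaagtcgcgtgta
Rpl7l1 (chr17:46782637-46782686, minus strand): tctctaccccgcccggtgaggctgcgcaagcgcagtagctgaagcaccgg
Rpl28 (chr7:4792935-4792984, plus strand): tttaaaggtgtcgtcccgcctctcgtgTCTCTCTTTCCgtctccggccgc
Rps6 (chr4:86857348-86857397, minus strand): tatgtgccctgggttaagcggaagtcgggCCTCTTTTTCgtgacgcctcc
Rpl13a (chr7:45128726-45128775, minus strand): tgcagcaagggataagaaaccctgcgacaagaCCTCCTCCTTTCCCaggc
Rpl22l1 (chr3:28805478-28805527, plus strand): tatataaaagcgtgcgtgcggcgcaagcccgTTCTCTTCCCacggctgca
In these lines Rpl26 and Rpl7l1 have no run of that length. The run ends before the annotated start in Rpl4 and Rps7 and lies at the start or just after it in the other genes that have one.

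Other motifs except TATAAA were searched in the whole 300 bases of each promoter, on both strands. A gene counted if any of its promoters had a match. CCGGAAG, the core of sites for ETS factors such as GABPA, was found in 41.0% of the 61 ribosomal protein genes and in 9.93% of all genes with a promoter. AAGATGG, the core of the YY1 site, was found in 16.4% against 7.28%, and GGGCGG, the GC box, in 62.3% against 38.2%. CCAAT was found in 31.1% against 41.1%. TATAAA, searched on the gene's strand alone from 40 to 15 bases before the start, was found in 1 of the 61 (1.64%) against 2.41%. Each string was searched on its own, so that matches of different motifs, and of the pyrimidine run, may overlap. A match describes letters and shows no bound factor.

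The values are RPKM, read numbers scaled by gene length and by library size. Levels of different genes are compared per length, which is uncertain where reads can be shared with near-identical copies, as described below. The read depth of the libraries is unknown, so no counting error is given. Srebf2 checks the labels: it stood at 0.263, 0.600 and 1.23 RPKM in VAT KO, against 16.6, 15.6 and 30.5 RPKM in VAT WT, and at 2.59 and 1.59 RPKM in spleen KO, against 10.5 and 23.2 RPKM in spleen WT. All 7 Treg markers were measured and Foxp3 ranged from 13.3 to 16.4 RPKM in VAT and from 6.97 to 8.87 RPKM in spleen. Cd3e went the other way, at 141 to 157 RPKM in VAT and 190 to 215 RPKM in spleen. Cd4 overlapped, at 122 to 149 RPKM in VAT and 116 to 147 RPKM in spleen. Summed levels of all genes ran from 185319 to 210778 RPKM per library, and the median over all genes from 6.56 to 7.28 RPKM.

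Ribosomal protein mRNA made up a smaller part of the measured RNA in VAT Tregs than in spleen Tregs. The 82 genes held 3.01%, 3.34% and 3.82% of the summed RPKM in VAT KO, and 3.07%, 3.40% and 2.80% in VAT WT. They held 4.81% and 5.39% in spleen KO, and 7.13% and 4.38% in spleen WT. Every VAT library lies below every spleen library, the genotypes overlap within each tissue, and spleen WT replicate 2 lies far above the other 9 libraries. In group means the share was 3.39 ± 0.407% in VAT KO (SD, n = 3), 3.09 ± 0.299% in VAT WT (n = 3), 5.10 ± 0.414% in spleen KO (n = 2) and 5.75 ± 1.95% in spleen WT (n = 2). In bulk RNA, fewer cells of a type and less RNA per cell cannot be told apart.

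**Figure D1:**
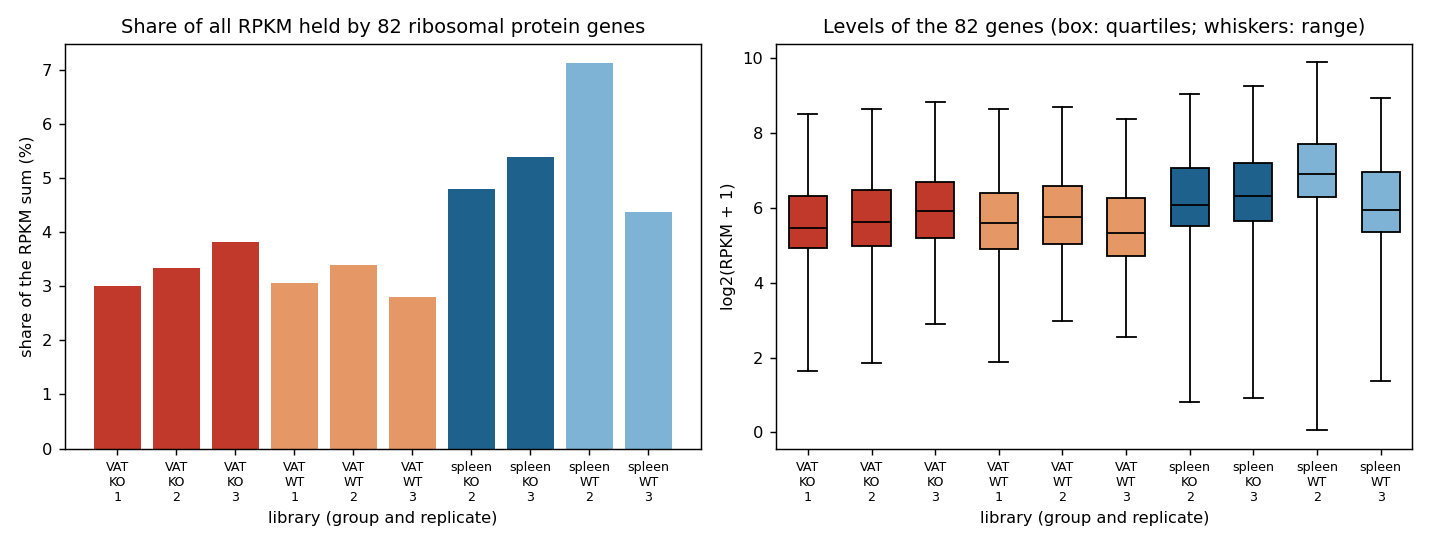
The left panel plots, for each library, the percent of the summed RPKM held by the 82 ribosomal protein genes, and the right panel their levels as log2(RPKM + 1), with boxes from quartile to quartile, a line at the median and whiskers over the full range. The 6 VAT libraries sit between 2.80% and 3.82%, the spleen libraries between 4.38% and 7.13%, and spleen WT replicate 2 has the highest box.

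The genes differ widely in level. Rpl36, a large subunit protein, was the highest, at 363, 396 and 447 RPKM in VAT KO and 379, 410.4 and 329 RPKM in VAT WT, with 523 and 613 RPKM in spleen KO and 946 and 469.8 RPKM in spleen WT. Rps3a1 of the small subunit followed, at 288, 340.1 and 378 RPKM in VAT KO and 306, 345 and 295 RPKM in VAT WT, with 487 and 566 RPKM in spleen KO and 889.97 and 488 RPKM in spleen WT. For both genes every VAT library was below every spleen library, and spleen WT replicate 2 was the highest. Rplp1, an acidic protein of the stalk that recruits elongation factors, had a mean of 438 RPKM over the libraries and Rpl19 of the large subunit 332 RPKM. In all, 25 of the 82 genes had a mean of at least 100 RPKM and 9 a mean under 20 RPKM.

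At the low end stood Rps4l, Rpl32l, Rpl22 and Rpl13a. Rpl22 had 6.86, 8.19 and 10.6 RPKM in VAT KO and 8.65, 7.47 and 6.23 RPKM in VAT WT, against 12.4 and 15.9 RPKM in spleen KO and 26.6 and 11.005 RPKM in spleen WT. Rpl32l, annotated as protein coding at chr10:20208439-20209030, had 5.33, 5.69 and 6.42 RPKM in VAT KO and 4.55, 6.92 and 5.03 RPKM in VAT WT, against 7.63 and 9.35 RPKM in spleen KO and 19.7 and 7.37 RPKM in spleen WT. Both low genes keep the order of the tissues that the abundant genes show. Each has 1 near-identical copy with which reads may be shared, so this order may not be the gene's own. All 82 genes passed the filter of 1 RPKM in at least 2 libraries, so none was left out of the tests.

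Spleen WT replicate 2 stands apart in nearly every ribosomal protein gene. It was the highest of the 10 libraries for 80 of the 82 genes, the exceptions being Rpl7l1 and Rps4l. The ratio of spleen WT replicate 2 to spleen WT replicate 3 had a median of 1.88 over the 82 genes, with quartiles of 1.77 and 2.01, against a median of 0.982 over all genes. The ratio was above 1.5 in 95.1% of the 82 genes and in 19.8% of all genes. The ratio of spleen KO replicate 3 to spleen KO replicate 2 was above 1 in all 82 genes, with a median of 1.15. Within VAT, replicate 3 of the WT was the lowest of all libraries for 69 genes. The spread between libraries is thus shared by the genes, and the 82 genes do not count as 82 separate measurements of a group.

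**Figure D2:**
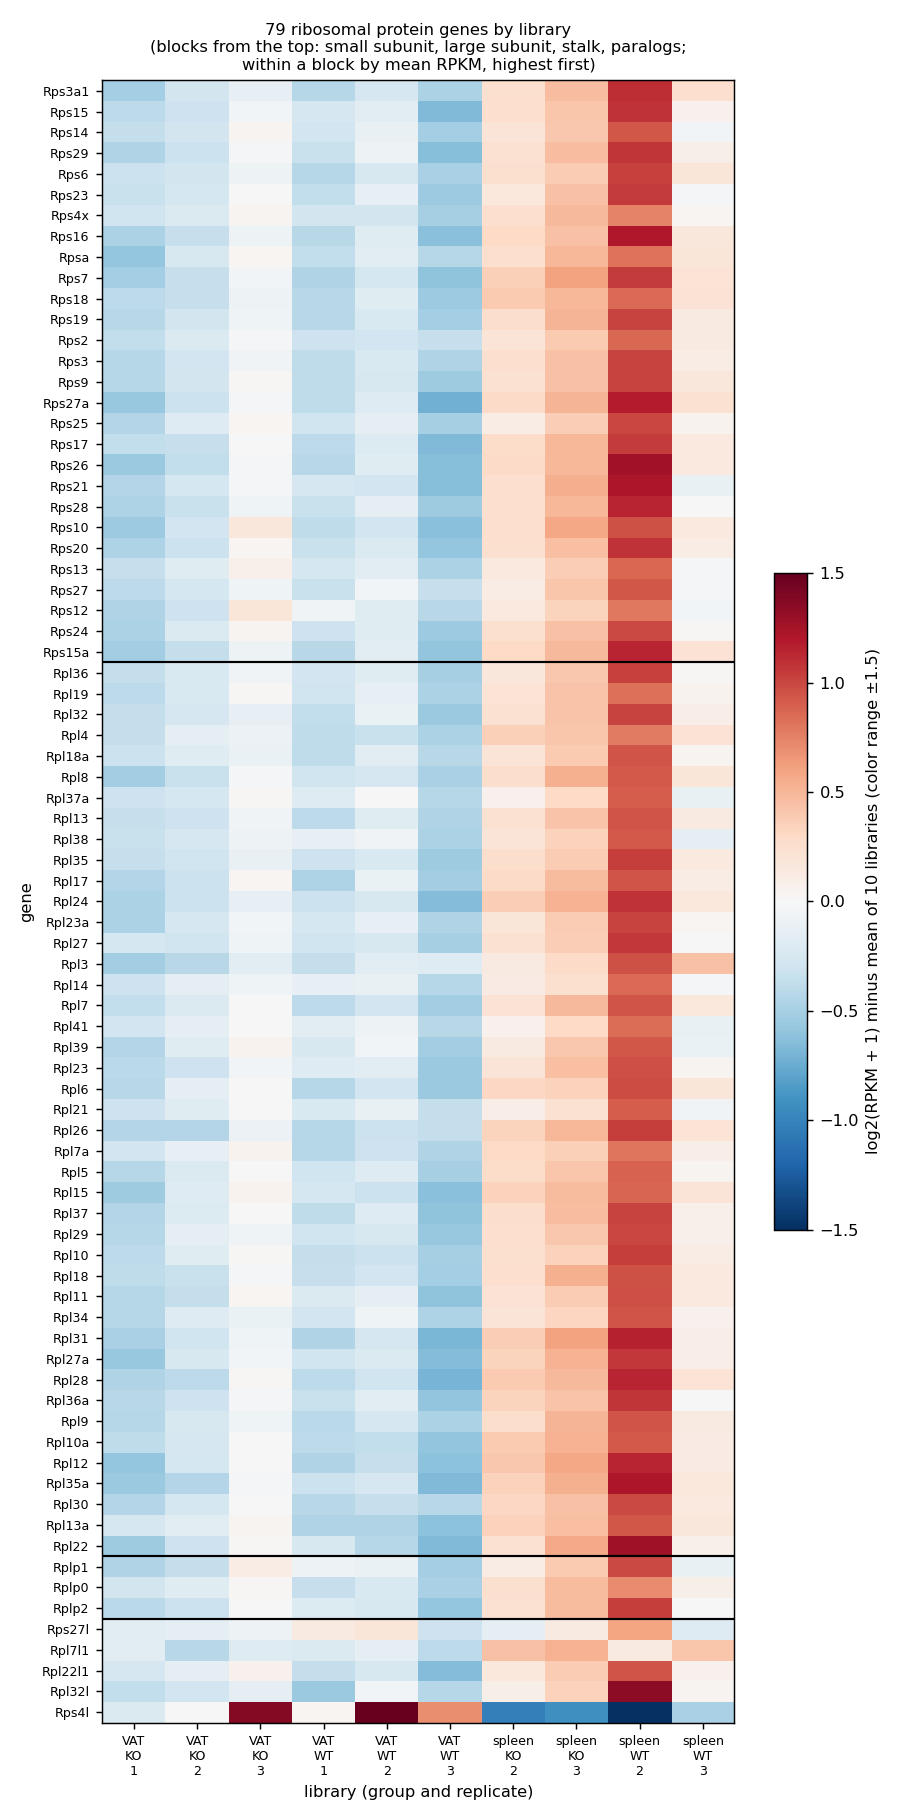
Each row is 1 of 79 ribosomal protein genes and each column 1 library, with KO left of WT within each tissue. The color gives log2(RPKM + 1) minus the gene's mean over the 10 libraries. The VAT columns are mostly blue to white and the spleen columns mostly light to dark red, but spleen WT replicate 3 is near white or pale blue in some rows. Spleen WT replicate 2 is the darkest in nearly every row, and Rps4l in the bottom row runs the other way.

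In WT Tregs, 73 of the 82 ribosomal protein genes were lower in VAT than in spleen and 1 was higher, at a Benjamini-Hochberg adjusted p under 0.05 over the 10429 genes tested with limma. Of all genes tested, 15.4% were called lower and 10.7% higher, 26.1% in all. The median log2 difference of the 82 genes was -0.91, which is 0.532 of the spleen level, with quartiles of -0.98 and -0.81, against a median of -0.12 over all genes. By role, 29 of the 31 small subunit genes, 39 of the 43 large subunit genes, 2 of the 3 stalk genes and 3 of the 5 paralogs fell.

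The largest falls were in Rpl28, Rps27a, Rpl22 and Rps26. Rpl28 of the large subunit had 21.1, 22.5 and 16.8 RPKM in VAT WT, against 63.2 and 32.4 RPKM in spleen WT. Rps27a, made as a fusion with ubiquitin, had 46.4, 52.7 and 36.2 RPKM in VAT WT, against 138 and 71.3 RPKM in spleen WT. Rps26, which lies at the mRNA exit of the small subunit, had 38.4, 45.1 and 32.7 RPKM in VAT WT, against 125 and 57.0 RPKM in spleen WT. In all 3 genes the WT groups do not overlap, and the 2 spleen libraries are farther from each other than the VAT libraries are. The log2 differences were -1.14 ± 0.25 for Rpl28 (SE, limma adjusted p = 0.00525), -1.14 ± 0.26 for Rps27a (adjusted p = 0.00638), -1.12 ± 0.30 for Rpl22 (adjusted p = 0.0177) and -1.12 ± 0.27 for Rps26 (adjusted p = 0.0100).

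The members with the smallest adjusted p in WT were Rpl3 and Rpl4. Rpl4, a large subunit protein that lines the exit tunnel, had 189, 196 and 177 RPKM in VAT WT, against 426 and 288 RPKM in spleen WT. Rpl3, which reaches towards the peptidyl transferase centre, had 71.8, 81.9 and 80.9 RPKM in VAT WT, against 180.5 and 126 RPKM in spleen WT. In both genes the WT groups are apart by more than the range of the VAT libraries. That gap is smaller than the difference between the spleen WT libraries. The limma adjusted p was 0.00153 for each, with log2 differences of -0.90 ± 0.16 for Rpl4 and -0.94 ± 0.17 for Rpl3 (SE).

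The other named genes with a structural or signalling role moved by similar amounts. Rps6 fell by 0.99 on the log2 scale (limma adjusted p = 0.00366) and Rps3a1 by 1.07 (adjusted p = 0.00306). Rpsa, a small subunit protein also known as the laminin receptor, fell by 0.82 (adjusted p = 0.0135). Of the stalk, Rplp0 fell by 0.75 (adjusted p = 0.00902) and Rplp2 by 0.86 (adjusted p = 0.0264), while the log2 difference of Rplp1 was -0.66 (adjusted p = 0.0919). Besides Rplp1, the members that did not pass were Rpl37a, Rpl38, Rpl39, Rpl41, Rps12, Rps27 and Rps27l, with log2 differences from -0.69 to -0.20 and adjusted p from 0.0563 to 0.535.

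This count leans on 1 library. Without spleen WT replicate 2, which leaves 1 spleen WT library whose spread is assumed to be like that of the other groups, 14 of the 82 genes were called lower, 8.67% of all genes tested were called lower and the median was -0.48. Without spleen WT replicate 3, 80 were called lower, against 21.4% of all genes, and the median was -1.36. Without VAT WT replicate 3, the lowest VAT library, 45 were called lower, against 9.96% of all genes. The direction was the same in all of these, and in 75 of the 82 genes (91.5%) every VAT WT library was below both spleen WT libraries, against 31.0% of all genes. The reverse order, found in Rps4l, held for 18.1% of all genes. The scaling of the libraries moves the whole distribution: with median ratio scaling the median of all genes was 0.01 in place of -0.12 and 57.4% of the calls were higher in place of 41.0%, while the median of the 82 genes relative to that of all genes was -0.77 in place of -0.79.

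In KO Tregs the same genes were also lower in VAT than in spleen, and here the spleen libraries lie closer together. In 79 of the 82 genes (96.3%) every VAT KO library was below both spleen KO libraries, against 30.4% of all genes, the exceptions being Rps12, Rps27l and Rps4l. The median log2 difference was -0.57, or 0.673 of the spleen level, against -0.09 over all genes. Of the 82 genes, 10 passed as lower and none as higher, against 6.94% of all genes lower and 7.65% higher, and 60 had an unadjusted p under 0.05, as did 28.2% of all genes. Among the 10 were Rpl3, Rpl4, Rpl7l1, Rpl24, Rpl26, Rps7 and Rps18, and all 10 also passed as lower in WT.

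Rps7, a small subunit protein that also binds the p53 regulator Mdm2, had 62.8, 70.9 and 87.1 RPKM in VAT KO, against 116 and 137 RPKM in spleen KO. Rpl24, which forms a bridge between the subunits, had 69.4, 76.9 and 88.7 RPKM in VAT KO, against 125 and 139 RPKM in spleen KO. Rpl26, which lies near the exit tunnel, had 34.8, 34.7 and 44.7 RPKM in VAT KO, against 60.2 and 67.7 RPKM in spleen KO. None of these groups overlap. The log2 differences were -0.78 ± 0.22 for Rps7 (SE, limma adjusted p = 0.0337), -0.75 ± 0.23 for Rpl24 (adjusted p = 0.0466) and -0.74 ± 0.21 for Rpl26 (adjusted p = 0.0335). Rpl4 fell by 0.58 (adjusted p = 0.0312) and Rpl3 by 0.57 (adjusted p = 0.0402). Rpl35a, with a difference as large as that of Rps7 at -0.78, did not pass (adjusted p = 0.0784).

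How many genes passed in KO depends on the estimate of the spread, since all 4 groups share it. Without spleen WT replicate 2, or without spleen WT replicate 3, 69 of the 82 genes were called lower, against 11.4% and 11.3% of all genes, with the same median of -0.57. With VAT KO and spleen KO fitted alone, 68 were called lower and 1 higher, Rps4l, against 11% of all genes lower and 9.46% higher. Without spleen KO replicate 3 or spleen KO replicate 2, which leaves 1 spleen KO library, the median was -0.48 or -0.67. Without VAT KO replicate 1 or VAT KO replicate 2 only 1 was called lower, against 4% and 4.89% of all genes. Without VAT WT replicate 1 or VAT WT replicate 2 the count was 5 or 6, against 6.2% and 6.33% of all genes. Over all fits that leave out 1 library the median stayed between -0.68, without VAT KO replicate 3, and -0.48.

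Set side by side, the tissue comparisons of the genotypes use no library in common. In both, 81 of the 82 genes had a lower mean in VAT, against 46.8% of all genes that were lower in both, and Rps4l was the exception. The log2 difference was above that of WT in KO for 80 of the 82 genes, but without spleen WT replicate 2 it was below that of WT in KO for 73 of the 82, with medians of -0.57 in KO and -0.48 in WT. Every VAT library, of either genotype, was below every spleen library in 64 genes (78.0%), against 15.4% of all genes. Spleen WT replicate 2 is nearly always the highest spleen library, so this count does not test it; without it the share of all genes was 20.7%. Rps4l was higher in every VAT library than in every spleen library, as were 10.4% of all genes, or 13% without spleen WT replicate 2.

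**Figure D3:**
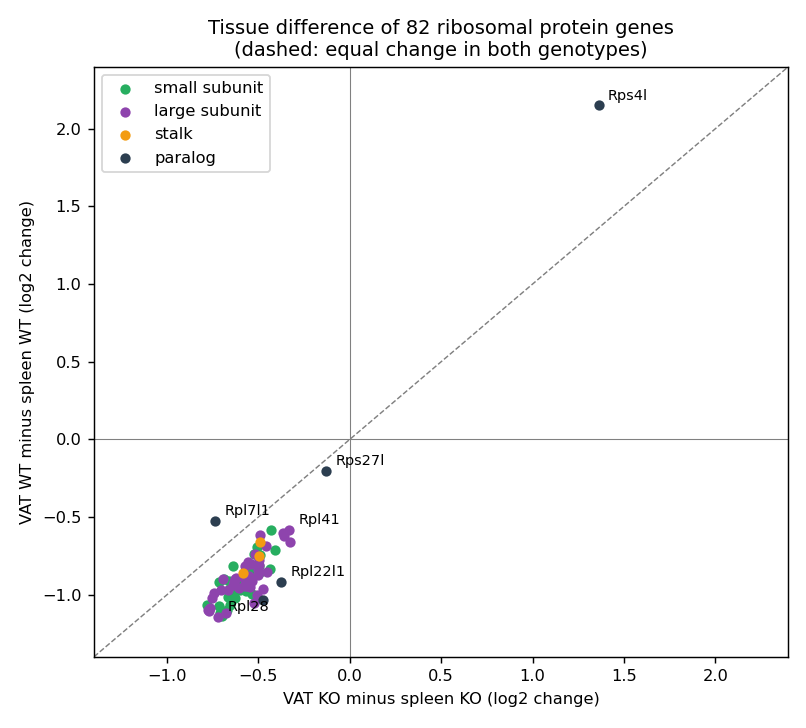
Each point is 1 ribosomal protein gene, with its log2 difference VAT KO minus spleen KO on the horizontal axis and VAT WT minus spleen WT on the vertical axis, colored by role. All points except Rps4l lie at the lower left, with medians of -0.57 in KO and -0.91 in WT, and 80 lie under the dashed line of equal change. In the fit that leaves out spleen WT replicate 2, not drawn here, 73 of the 82 are above that line.

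Markers of other cells were measured in the same libraries. Of 16 myeloid markers 4 were measured, and their summed level was 20.3, 45.6 and 45.4 RPKM in VAT KO, 13.98, 15.2 and 12.3 RPKM in VAT WT, 183 and 186 RPKM in spleen KO, and 240.5 and 179 RPKM in spleen WT. Most of this is Ctss, a protease of antigen-presenting cells, at 235 RPKM in spleen WT replicate 2 and 11.8 to 44.9 RPKM in VAT. Fcer1g, a receptor chain of myeloid cells and natural killer cells, stood between 0.16 and 3.95 RPKM in all libraries. Of 12 B cell markers 7 were measured, with sums of 60.1 to 119 RPKM in VAT KO, 62.8 to 220.3 RPKM in VAT WT, 99.5 and 134 RPKM in spleen KO, and 104 and 132 RPKM in spleen WT. For the 2 measured of 8 CD8, natural killer and gamma-delta T cell markers the sums were between 4.93 and 20.03 RPKM over all libraries, and for the 2 measured of 12 adipocyte and stromal markers between 6.75 and 38.3 RPKM. The 7 Treg markers summed to 967 to 995 RPKM in VAT KO and 1031 to 1044 RPKM in VAT WT, against 685 and 634 RPKM in spleen KO and 677 and 683 RPKM in spleen WT. By log2 difference, 5 of the 7 were higher in VAT and 2 lower in WT, and 6 were higher and 1 lower in KO. The part of the other cells in the tissue difference of the ribosomal protein genes was not tested.

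Deletion of Srebf2 gave no called ribosomal protein gene in VAT Tregs. None of the 82 genes passed, against 0.422% of all genes, none had an unadjusted p under 0.05, and the smallest adjusted p was 0.779 by limma. The median log2 difference of VAT KO minus VAT WT was 0.11, against 0.02 over all genes, with 76 differences above 0 and 6 below. Across the left-out libraries the median ranged from 0.01, without VAT KO replicate 3, to 0.20, without VAT WT replicate 2. The group shares of 3.39% in VAT KO and 3.09% in VAT WT differ by less than the SD of the VAT KO libraries.

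Only 2 genes had every VAT KO library above every VAT WT library, Rpl13a and Rpl7a, which is 2.44% of the 82 against 8.97% of all genes, and none had every VAT KO library below, against 6.16%. Rpl13a, a large subunit protein that can also repress translation of inflammatory mRNAs when it leaves the ribosome, had 8.93, 9.55 and 11.2 RPKM in VAT KO, against 7.69, 7.69 and 6.72 RPKM in VAT WT. Rpl7a had 38.9, 43.9 and 49.5 RPKM in VAT KO, against 35.2, 38.4 and 34.6 RPKM in VAT WT. The lowest KO library of Rpl7a is 38.9 RPKM and the highest WT library 38.4 RPKM, so its groups all but touch. The log2 differences were 0.38 ± 0.20 for Rpl13a (SE, limma adjusted p = 0.779) and 0.28 ± 0.17 for Rpl7a (adjusted p = 0.884). The next members by p were Rpl22l1 at 0.31 (adjusted p = 0.930) and Rpl4 at 0.20 (adjusted p = 0.937).

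In spleen, too, no ribosomal protein gene passed between KO and WT, and no gene of the 10429 did (0%), while 873 genes had an unadjusted p under 0.05, among them 1 of the 82, Rpl3. The median log2 difference of spleen KO minus spleen WT was -0.19 against -0.03 over all genes, with 80 differences below 0. Rpl3 had 102 and 113 RPKM in spleen KO, against 180.5 and 126 RPKM in spleen WT, and was the one member with both KO libraries below both WT libraries, against 17.5% of all genes. Its log2 difference was -0.49 ± 0.19 (SE, limma adjusted p = 0.594). Rpl7l1 was the one member with both KO libraries above both WT libraries, against 15% of all genes, with a log2 difference of 0.20 ± 0.17 (adjusted p = 0.717).

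The sign of the spleen difference is set by the WT library that is kept. Without spleen WT replicate 2 the median of the 82 genes was 0.25, with 80 differences above 0 and none called. Without spleen WT replicate 3 it was -0.66, and 38 genes were called lower, against 6.38% of all genes, each time with 1 spleen WT library. In 79 of the 82 genes both spleen KO libraries lie between the spleen WT libraries, the exceptions being Rpl3, Rpl7l1 and Rps3a1. Rps6, for example, had 189 and 208 RPKM in spleen KO, against 327 and 181 RPKM in spleen WT. No direction of the deletion can be read from the spleen libraries for these genes.

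The difference between the tissues in the effect of the deletion was tested as an interaction, the VAT difference minus the spleen difference. No ribosomal protein gene passed and no gene of the 10429 did (0%), while 738 genes, none of them ribosomal protein genes, had an unadjusted p under 0.05. The median over the 82 genes was 0.32, with 80 above 0, and the smallest adjusted p was 0.767 by limma, shared by Rpl13a at 0.53 and Rpl6 at 0.50. The median was -0.14 without spleen WT replicate 2 and 0.76 without spleen WT replicate 3, where 10 genes were called higher, against 2.1% of all genes.

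**Figure D4:**
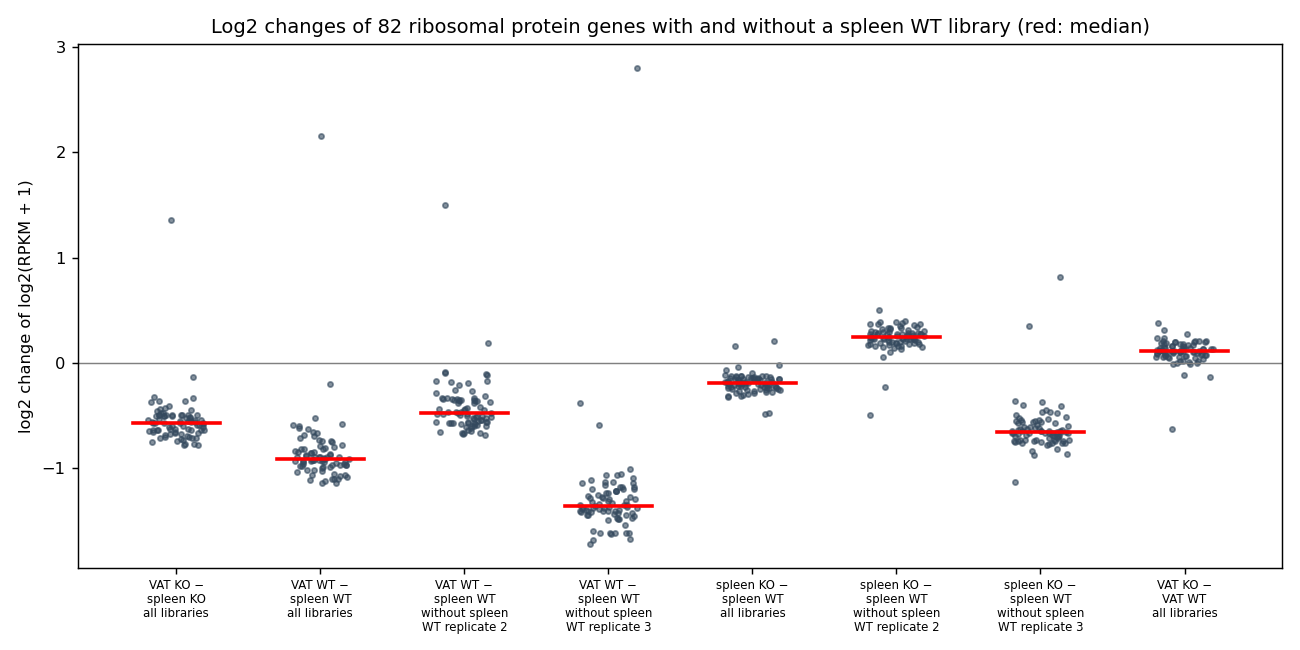
Each dot is 1 of the 82 genes, the vertical axis is the log2 change of log2(RPKM + 1), red lines are medians, and the columns give comparisons with all libraries or without 1 spleen WT library. The VAT WT minus spleen WT medians are -0.91, -0.48 and -1.36, all below 0, whereas the spleen KO minus spleen WT medians are -0.19, 0.25 and -0.66 and lie on both sides of 0.

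Of the 5 paralogs, Rpl22l1 and Rpl32l kept the tissue order of the other genes, and Rpl7l1, Rps27l and Rps4l differed from them in at least 1 library or group. Rpl7l1, a relative of Rpl7 that takes part in assembly of the large subunit, had 29.2, 24.2 and 28.2 RPKM in VAT KO, against 44.7 and 47.0 RPKM in spleen KO. In WT it had 27.8, 29.7 and 24.6 RPKM in VAT, against 35.7 and 44.0 RPKM in spleen. It fell in VAT in both genotypes, by 0.74 ± 0.16 in KO (SE, limma adjusted p = 0.00695) and by 0.52 ± 0.16 in WT (adjusted p = 0.0278), and is the one gene lower in spleen WT replicate 2 than in the other spleen libraries besides Rps4l. Its KO call is lost without spleen KO replicate 3 (adjusted p = 0.0749), and its WT call without VAT WT replicate 1 (0.0597), VAT WT replicate 3 (0.0969) or spleen WT replicate 3 (0.0951), adjusted p by limma in each. Rpl7 itself had 48.7, 52.6 and 44.5 RPKM in VAT WT, against 125 and 71.8 RPKM in spleen WT, a fall of 0.95 (adjusted p = 0.00549).

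Rps27l, a relative of Rps27 known as a target of p53, had 31.7, 32.4 and 34.0 RPKM in VAT KO, 39.4, 40.8 and 28.8 RPKM in VAT WT, 32.6 and 39.4 RPKM in spleen KO, and 54.5 and 31.4 RPKM in spleen WT. Its groups overlap in every comparison. The log2 differences between the tissues were -0.13 in KO (limma adjusted p = 0.760) and -0.20 in WT (adjusted p = 0.535), the nearest to 0 of all 82 genes. Rps27 had a log2 difference of -0.69 in WT (limma adjusted p = 0.0563). It lay lower per length than Rps27l in all 10 libraries, at 14.3 to 37.4 RPKM, but has 4 near-identical copies and is uncertain in level.

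Rpl22l1 had 16.2, 17.6 and 20.4 RPKM in VAT KO and 14.9, 16.3 and 12.03 RPKM in VAT WT, against 21.8 and 25.6 RPKM in spleen KO and 38.1 and 20.4 RPKM in spleen WT. It stood above Rpl22 in all 10 libraries, though both genes have near-identical copies and are uncertain in level. In WT, Rpl22l1 fell by 0.92 in VAT (limma adjusted p = 0.0133). Rpl32l, which also has a near-identical copy and may share its reads, fell by 1.03 in WT (adjusted p = 0.0300). The paralog Rpl36al, which the naming rule does not take in, had a difference of -0.44 in KO (adjusted p = 0.190) and fell by 0.70 in WT (adjusted p = 0.0261). Rpl3l, Rpl10l and Rpl39l were not analysed here.

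Rps4l, annotated as a transcribed pseudogene at chr6:148354656-148355596, was the one member higher in VAT. It had 2.09, 2.62 and 8.33 RPKM in VAT KO and 2.67, 17.0 and 4.84 RPKM in VAT WT, against 0.765 and 0.900 RPKM in spleen KO and 0.042 and 1.57 RPKM in spleen WT. All VAT libraries are above all spleen libraries, and the VAT libraries differ several-fold among themselves. The log2 difference was 1.36 ± 0.62 in KO (SE, limma adjusted p = 0.170) and 2.15 ± 0.62 in WT (adjusted p = 0.0231). The WT call is lost without VAT WT replicate 2 (adjusted p = 0.0633), without spleen WT replicate 2 (adjusted p = 0.194) and with a pseudocount of 5. Its relative Rps4x on the X chromosome had 102, 102 and 87.0 RPKM in VAT WT, against 207 and 126 RPKM in spleen WT.

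**Figure D5:**
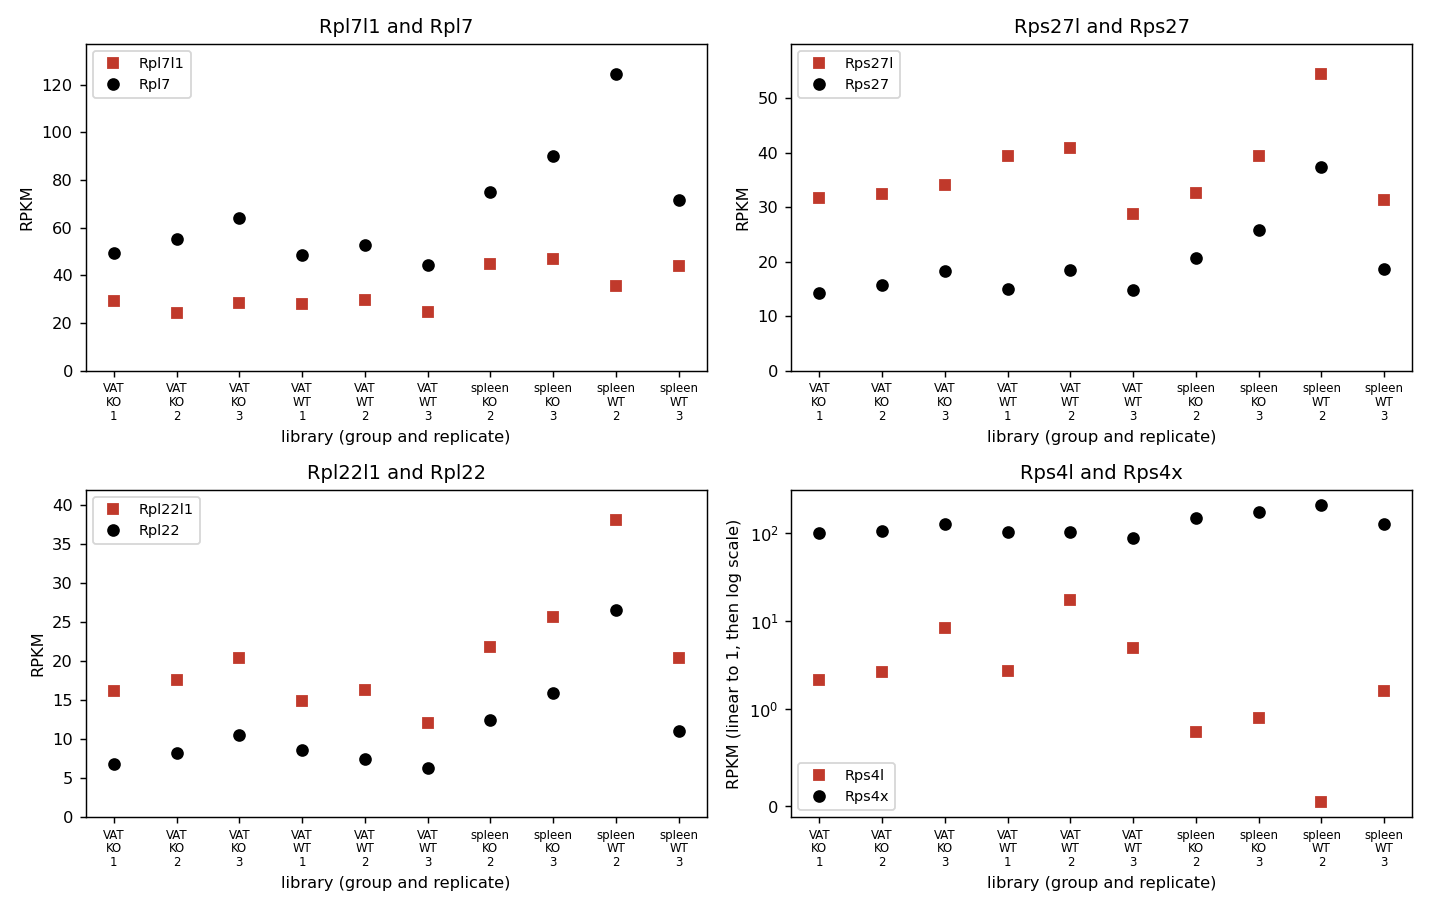
The 4 panels plot RPKM in each library of a paralog (squares) and its relative (circles), with the Rps4l panel linear to 1 RPKM and on a log scale above. Rpl22 and Rpl22l1 peak together in spleen WT replicate 2, Rpl7l1 dips there at 35.7 RPKM while Rpl7 reaches 125 RPKM, Rps27l has no gap between the tissues, and Rps4l is the only gene shown that is higher in VAT.

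Relative to the other ribosomal protein genes of the same library, few members were called. With the median of the 82 genes set equal in all libraries, Rps4l was the only member that passed in VAT WT against spleen WT, at 2.46 (limma adjusted p = 0.00755). This call is lost without spleen WT replicate 2 (1.78, adjusted p = 0.0698), and without spleen WT replicate 3 Rpl7l1 (adjusted p = 0.00553) and Rps27l (adjusted p = 0.0144) passed as well. By this scaling 22.9% of all genes were called higher and 2.18% lower. Rps27l came next at 0.65 (adjusted p = 0.0551). Its RPKM relative to the median of the 82 genes was 0.730, 0.675 and 0.577 in VAT KO and 0.829, 0.776 and 0.730 in VAT WT, against 0.487 and 0.5003 in spleen KO and 0.461 and 0.522 in spleen WT. On this relative scale every VAT library is above every spleen library, with the opposite sign to its absolute difference. Such separation is not particular to Rps27l. Rpl37a and Rpl41, among others, were separated in the same direction, and Rpl24 and Rps7, among others, in the reverse. The share of all genes separated on this scale was not counted. With all libraries, no member passed in any other comparison by this scaling. Rps4l passed in VAT KO against spleen KO without VAT WT replicate 2 (limma adjusted p = 0.0438), spleen WT replicate 2 (0.0242) or spleen WT replicate 3 (0.0226). Without spleen WT replicate 3, Rpl7l1 passed in spleen KO against spleen WT (adjusted p = 0.0204) and in the interaction (adjusted p = 0.0406). In VAT KO against spleen KO, 9.14% of all genes were called higher and 0.94% lower, in VAT KO against VAT WT 0.0384% were called lower, and in the spleen comparison and the interaction none were.

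Reads of ribosomal protein genes can be shared with processed pseudogenes and other copies, and how the reads were assigned is not given in the sources used here. In the GENCODE M21 transcripts, 77 of the 82 coding sequences had at least 1 other gene with 95% identity over at least 80% of their length, with a median of 5 and up to 57 for Rpl21. The 5 genes without such a copy included Rps27l and Rps4l. Values of the other 77 are therefore uncertain in level. The median log2 difference of VAT KO minus spleen KO was -0.54 for the 5 genes with no copy and -0.61 for the 17 genes with at least 10, and that of VAT WT minus spleen WT was -0.89 for the 5 and -0.90 for the 17. Across the 82 genes, which are not independent replicates, Spearman's rho between the number of copies and the mean RPKM was -0.03.

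Genes that work with the ribosomal proteins were set beside them in 4 lists drawn up by function. Among 16 partners, which are parts of the ribosome named otherwise, elongation and initiation factors and other factors of translation such as Pabpc1 and Naca, 11 fell in VAT WT against spleen WT and none rose, with a median of -0.69, where 15.4% of all genes fell. Eef1g, a subunit of the factor that loads aminoacyl-tRNA, had 46.8, 51.6 and 47.2 RPKM in VAT WT, against 113 and 88.2 RPKM in spleen WT, a log2 difference of -1.02 (limma adjusted p = 0.000628). Eif3e, a subunit of initiation factor 3, fell by 0.88 (adjusted p = 0.00300). In KO, 3 of the 16 fell, against 6.94% of all genes, with a median of -0.42, among them Eef1g by 0.77 (adjusted p = 0.00655) and Eif4b by 0.57 (adjusted p = 0.0183).

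Of 34 ribosome assembly genes, 9 fell in VAT in KO and 16 in WT, with medians of -0.48 in KO and -0.57 in WT, and none rose. Of all genes 6.94% fell in KO and 15.4% in WT. Fbl, the methyltransferase of ribosomal RNA, had 16.0, 20.5 and 20.2 RPKM in VAT WT, against 50.4 and 40.9 RPKM in spleen WT, a log2 difference of -1.23 (limma adjusted p = 0.000933). Rrp9, of the U3 particle, fell by 1.11 in WT (adjusted p = 0.000981), and in KO Nop2 fell by 0.74 (adjusted p = 0.0138) and Nop10 by 0.91 (adjusted p = 0.0151). For the sum of this list spleen WT replicate 2 was less far apart, at 925 RPKM against 819.5 RPKM in spleen WT replicate 3, than for the 82 genes, at 15040 RPKM against 8108 RPKM. Single genes of the list still differed widely between these libraries, in both directions. Nop10 had 183 RPKM in replicate 2 against 99.5 RPKM in replicate 3, and Ddx21 had 6.04 against 21.4 RPKM.

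Of 14 genes of RNA polymerase I, which transcribes ribosomal RNA, 2 rose and 4 fell in VAT WT against spleen WT, where 10.7% of all genes rose and 15.4% fell. Taf1d, a subunit of its promoter factor, rose by 1.13 (limma adjusted p = 0.000814) and Polr1a, the largest subunit, by 0.88 (adjusted p = 0.0108), while Polr1e fell by 0.94 (adjusted p = 0.00860). In KO 2 of the 14 rose, against 7.65% of all genes, Taf1d by 0.90 (adjusted p = 0.00597) and Polr1a by 1.01 (adjusted p = 0.00778), and none fell. Polr1a had 9.15, 7.25 and 8.84 RPKM in VAT KO, against 4.70 and 2.82 RPKM in spleen KO.

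Of 19 genes that control ribosomal protein mRNAs, including mTOR pathway genes, Larp1 and the Myc family, 1 rose in VAT WT against spleen WT, against 10.7% of all genes, and 1 fell in VAT KO against spleen KO, against 6.94% of all genes. Eif4ebp1, which restrains cap-dependent translation, rose by 0.71 in WT (limma adjusted p = 0.0433). Max, the partner of Myc, fell by 0.82 in KO (adjusted p = 0.0472). Larp1 had 12.7, 13.4 and 12.6 RPKM in VAT KO and 11.3, 10.4 and 12.3 RPKM in VAT WT, against 19.4 and 22.8 RPKM in spleen KO and 12.4 and 22.6 RPKM in spleen WT. Its log2 differences between the tissues were -0.67 in KO (adjusted p = 0.0597) and -0.53 in WT (adjusted p = 0.0886). Larp1 and Max were low in spleen WT replicate 2, at 12.4 and 8.18 RPKM, against 22.6 and 15.7 RPKM in spleen WT replicate 3. Other genes of the list were higher in replicate 2, such as Rheb at 21.1 against 14.9 RPKM and Eif4ebp1 at 8.87 against 5.78 RPKM. The list thus has no shared direction in this library, and a link to the ribosomal protein genes was not tested.

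Between KO and WT, none of these 4 lists had a called gene in either tissue. The medians of VAT KO minus VAT WT were 0.12 for the partners, 0.16 for assembly, 0.06 for RNA polymerase I and 0.05 for the control genes. Those of spleen KO minus spleen WT were -0.14, 0.05, -0.10 and 0.13 in the same order. The members with the smallest p in VAT included Nip7 of the assembly list at 0.51 (limma adjusted p = 0.533) and Cd3eap of RNA polymerase I at 0.82 (adjusted p = 0.345), and in spleen Pes1 at -0.50 (adjusted p = 0.594) and Mnt at 0.68 (adjusted p = 0.594).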

How the data were processed

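RNA of sorted Tregs was made into SMART-seq v4 cDNA and Nextera XT libraries, per the labels' protocols. STAR and mm10 are named in the submitters' processing notes. How reads were counted, over which gene models and with what filter is not given in the sources used here. In the deposited table the authors give RPKM values per gene and library, per the file headers. Of 11 labelled samples 10 had a matching column, spleen KO replicate 1 was not analysed here, and 1 column, named as a first spleen WT replicate, matches no label and was not used. Values were tested as log2(RPKM + 1), a pseudocount of 1, for the 10429 genes that reached 1 RPKM in 2 or more libraries. One limma fit (3.58.1, R 4.3.3) held the 4 group means, with a trend, 6 residual and 6.44 prior degrees of freedom. P-values are two-sided and adjusted over all tested genes by Benjamini-Hochberg, with a threshold of 0.05. On this scale fold changes of low genes are understated. The fit was tested on simulated data with independent noise for each gene and library. Such data cannot test how the fit handles a shift that many genes of a library share. Copies were found with BLAST 2.17.0+ among GENCODE transcripts, and promoters and coordinates, which count from 1, are from RefSeq tables of GRCm38.p6. Named genes were the extremes of level, of change and of relative change, the stalk proteins, Rpsa, the paralog pairs, Rps6, Rps27a and Rpl3, and, of other lists, members with the smallest p. Members and lists were chosen with earlier results of these data known. Values of a few single genes are not reported here, though all 82 enter the counts and medians.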

Additional observations from a re-analysis of the deposited data

How the results depend on the processing

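Counts of ribosomal protein genes called moved with the estimate of the spread and with scaling. For VAT KO minus spleen KO, 10 were called lower, as were 724 of all 10429 genes tested. With the compared groups fitted alone 68 were called lower and 1 higher, against 1148 and 987 of all genes. With equal RPKM sums 35 were called lower, against 820 of all genes, and with equal sums over the other genes 37, against 901. With quantile normalization 34 were called lower, against 723 of all genes. With median ratio scaling 2 were, against 558, and with no trend 1, against 656. With the library medians of the 82 genes set equal 0 were called lower, against 98 of all genes. For VAT WT minus spleen WT (74 called) the count was 43 with the compared groups alone. All genes called were then 1757, against 2723 in the main setting. With those medians set equal 1 was called, as higher, against 2393 of all genes. With a pseudocount of 0.1, 2 genes were called in each of spleen KO minus spleen WT and the interaction. Genes called in VAT KO minus VAT WT, 44 in the main setting, were 20 with no trend, 20 with a pseudocount of 5 and 4 with the medians of the 82 genes set equal, which also turned Rps27l to 0.40 in KO and 0.65 in WT. Setting those medians equal removes by construction what the 82 genes share; it moved the median of all genes to 0.59 in VAT WT minus spleen WT and 91.3% of calls were then higher; in KO it was 0.37 with 90.7% higher, against 52.4% in the main setting.

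Leaving out 1 library at a time, members called ranged from 14 to 81 in VAT WT minus spleen WT, 0 to 69 in VAT KO minus spleen KO, 0 to 38 in spleen KO minus spleen WT and 0 to 10 in the interaction. The medians ranged from -1.36 to -0.48, -0.68 to -0.48, -0.66 to 0.25 and -0.14 to 0.76 in that order. All genes called ranged from 1718 to 3892, 747 to 2209, 0 to 1395 and 0 to 514, and from 2 to 59 in VAT KO minus VAT WT. Spleen KO minus spleen WT ranged from -1.13 to 0.18 for Rpl32l, -0.76 to 0.10 for Rps3a1 and -0.72 to 0.13 for Rps6, each positive value being that without spleen WT replicate 2. Rps27l ranged from -0.59 to 0.19 in VAT WT minus spleen WT and from -0.26 to 0.004 in VAT KO minus spleen KO. The cause of these changes was not tested.

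Whether the replicate numbers pair the samples is unknown. Deviations of same-numbered libraries from their group means correlated between -0.147 and 0.184, which with 2 or 3 libraries per group cannot decide it. With a replicate block, 55 members were called lower and 1 higher in VAT WT minus spleen WT, against 1162 and 904 of the 10429 genes. In VAT KO minus spleen KO 1 member was called lower, against 466 of all genes. Of the group medians and counts, 293 alternatives stayed within the limits set, 47 moved and 2 reversed. For a median the limit was a shift of 0.334 on the log2 scale. The main medians of VAT KO minus VAT WT (0.11), spleen KO minus spleen WT (-0.19) and the interaction (0.32) are smaller in size than that. Comparisons without a called gene that stayed so also count among the 293, which is therefore no measure of stability. The unknown read depth, 2 libraries per spleen group and 1 spleen WT library that stands apart limit what these data show.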
